A study of Monodelphis domestica and Mus musculus with 2 samples.

Results

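The cells described here are the layer 4 (L4) neurons of mouse primary visual cortex (V1), as measured by Stereo-seq on a single chip. A cell was taken as an L4 neuron if it lay in one of the 4 annotated V1 regions, passed the authors' quality filter, and carried the subclass label L4 together with the class label glutamatergic. These criteria selected 1879 of 9127 V1 cells, or 20.6% (95% exact interval 19.8% to 21.4%) of all cells and 30.1% (29.0% to 31.2%) of the glutamatergic cells. The authors identified V1 in part by the prominence of L4 cells, so these shares depend in part on that choice. A further 90 cells with the subclass label L4 but another class label were left out. L4 cells were compared with 1406 L2/3 and 133 L5IT cells selected in the same manner, and with each other by type label.

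The study asked how cortical cell types are arranged and specified in a marsupial, the gray short-tailed opossum, relative to the mouse. The mouse arm used here is 1 adult wild-type male of the strain C57BL/6J at about P40 (age 40 days), kept on a reversed light/dark cycle, with no treatment named. Several coronal slices of its brain were embedded in a block, which was sectioned at 10 µm and placed on a chip whose spatial barcodes assign each RNA molecule, counted as a unique molecular identifier (UMI), to a position and then to a segmented cell. Class and subclass labels were transferred from a single-nucleus RNA-seq atlas by the agreement of the nearest atlas neighbours of each cell. Gene expression, but not position, entered these labels.

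L4 is the main target of the visual thalamus in the cortex, and its excitatory neurons pass this input mostly to the layers above. These neurons are intratelencephalic (IT), since their axons stay within the telencephalon, the part of the brain that includes the cortex. In the mouse they sit between the IT neurons of L2/3 and those of L5 and L6. The nuclear receptor RORβ, encoded by Rorb, is the classical transcription factor of L4 and takes part in the grouping of L4 neurons around thalamic axons.

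The chip held 120239 segmented cells with a median of 1134 UMIs, and the V1 cells had a median of 1305. L4 cells had a median of 1205 UMIs and 791 genes, close to L2/3 cells at 1249.5 UMIs, whereas L5IT cells had 1553. Summed counts were 2395577 UMIs for L4, 1806834 for L2/3 and 208818 for L5IT. The number of L4 cells was 616, 324, 465 and 474 in regions 1 to 4. They made up 26.5%, 29.3%, 35.8% and 31.4% of the glutamatergic cells of the respective regions. Levels are given as UMIs of a gene per 10000 UMIs of a group of cells, with exact Poisson 95% intervals, and levels of different genes are not comparable. All cells came from 1 animal and 1 library, so that intervals cover counting error only and no p-value was computed. The 4 regions lie on 3 coronal sections of this animal that shared the chip, and their values describe the spread within it.

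**Figure D1:**
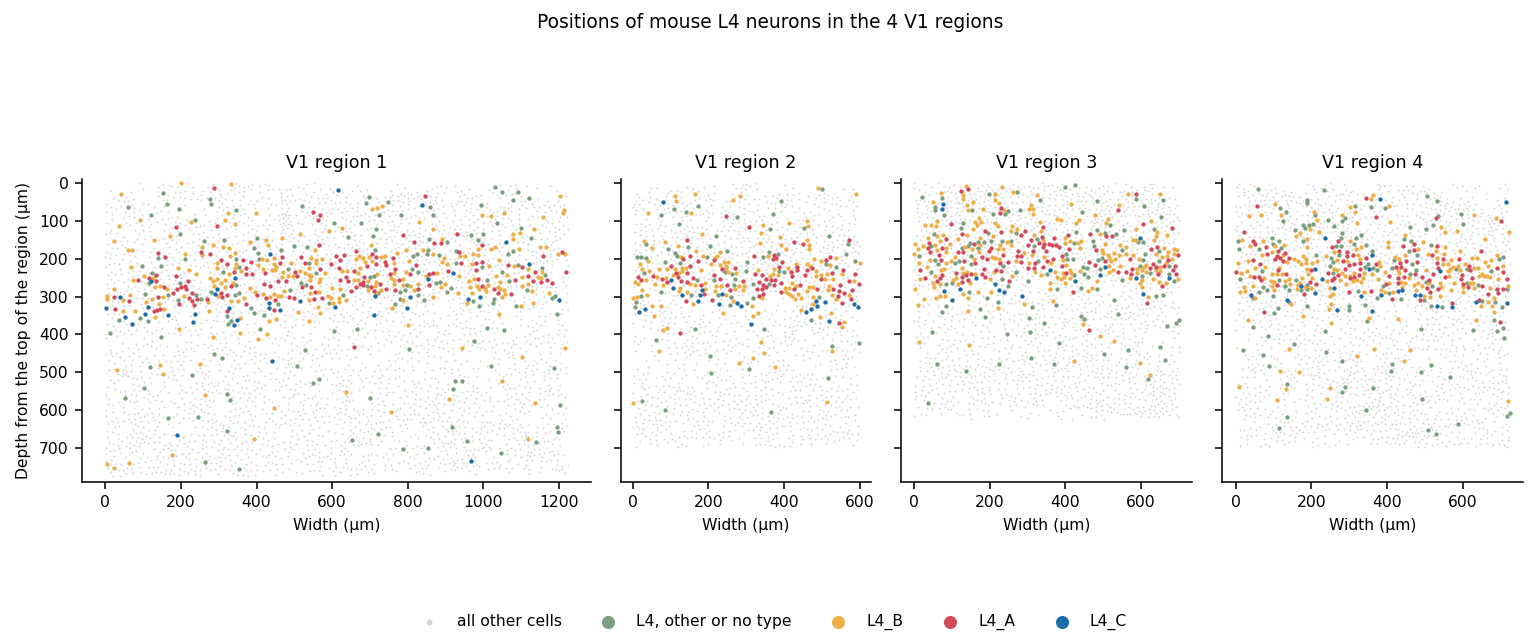
Position of every V1 cell in the 4 regions, with distance along the cortical surface on the x axis (µm) and depth from the top of the region on the y axis (µm). L4 cells (red, yellow, blue and green for types L4_A, L4_B, L4_C and all others) form a band in each region, at a median depth of 237.3 µm over the regions together, among the other cells in grey.

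Of the markers Rorb, Whrn and Scnn1a, the former 2 were clearly higher in the L4-labelled cells than in the other glutamatergic cells. Rorb (chr19:18907969-19088585, minus strand, GRCm39) was at 3.00, 3.03, 2.51 and 2.54 UMIs per 10000 in the L4 cells of regions 1 to 4. In L2/3 cells it was at 0.71, 0.39, 0.83 and 0.61, and in L5IT cells at 0.56, 1.57, 0.74 and 1.00. Every region of L4 was thus above every region of both other subclasses. Pooled over regions, the level was 2.78 (2.57 to 3.00) in L4, 0.64 (0.53 to 0.77) in L2/3 and 0.91 (0.55 to 1.42) in L5IT. The neighbours L2/3 and L5IT in this order had overlapping intervals. Among non-neuronal cells, astrocytes had 1.46 (1.16 to 1.82), the highest value outside L4, and the whole non-neuronal class 0.85 (0.74 to 0.97).

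Whrn (chr4:63333143-63414333, minus strand), which encodes the scaffold protein whirlin, was also highest in L4. It was at 0.54, 0.77, 0.53 and 0.59 in the L4 cells of regions 1 to 4, against 0.15, 0.08, 0.14 and 0.09 in L2/3 cells, and the regions did not overlap. The pooled level was 0.59 (0.50 to 0.69) in L4 and 0.12 (0.08 to 0.18) in L2/3. No UMI of Whrn was counted in the 133 L5IT cells. With 3 UMIs taken as the limit of a count of 0, and not the exact interval, this allows a level of up to 0.144. Scnn1a (chr6:125297622-125321906, plus strand), a subunit of the epithelial sodium channel whose promoter is widely used to drive Cre in L4, was close to the detection limit with 18 UMIs in all L4 cells and 3 in L2/3 cells. Its level in L4 was 0.04, 0.14, 0.15 and 0.00 by region, and region 4 had no UMI. The labels drew on expression, so that these levels describe the labelled cells and are no independent check of the label.

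Few single cells carried a UMI of these markers. Rorb was detected in 20.4% (18.6% to 22.3%) of L4 cells, 6.83% of L2/3 cells and 7.47% of non-neuronal cells, whose median was 1245 UMIs against 1205 in L4. After thinning each cell to 300 UMIs, which left out 25 L4, 16 L2/3 and 37 non-neuronal cells below that number, the shares were 7.61%, 1.58% and 2.02%. For Whrn the unthinned shares were 6.01%, 1.49% and 2.03%. The excitatory marker Slc17a7, the vesicular glutamate transporter, was as high in non-neuronal cells (10.8) as in L4 (9.73) and L2/3 (9.56), so that UMIs of an excitatory gene were assigned to non-neuronal cells at the level of neurons. The part of RNA from neighbouring cells in the levels given here was not tested.

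**Figure D2:**
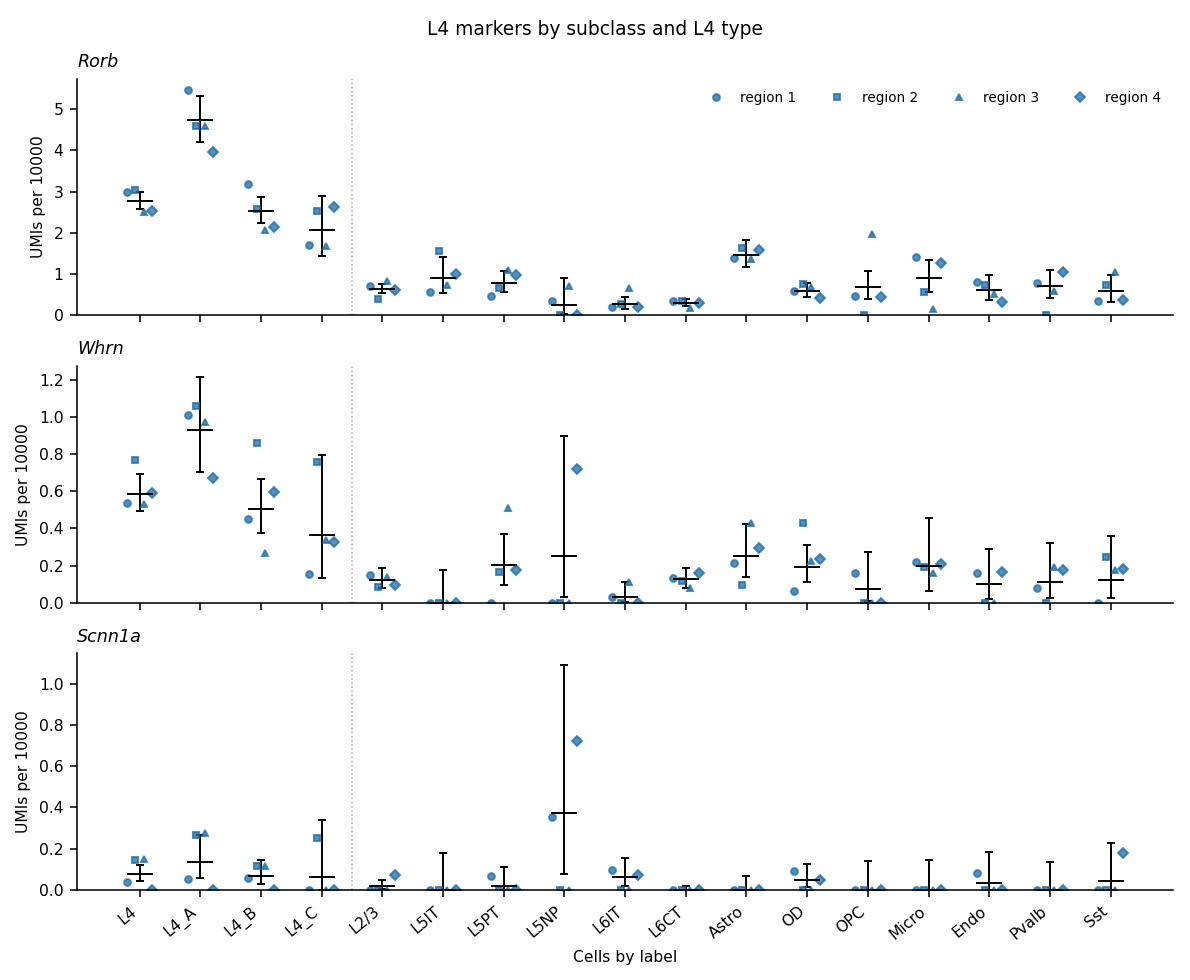
Levels of Rorb, Whrn and Scnn1a (y axis, UMIs per 10000 UMIs) by cell label (x axis), with black bars for the pooled level and its 95% Poisson interval and blue symbols for the 4 regions. Among the subclass labels, L4 has the highest Rorb (2.78) and Whrn (0.59) levels, L4_A lies above the other L4 types, and Scnn1a stays near 0 in L4.

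Labels were transferred in rounds of decreasing stringency. The L4 label was given in the first round, which required 100% agreement among 50 atlas neighbours, for 709 L4 cells (37.7%), in the second (75%) for 772 (41.1%) and in the third (50%) for 398 (21.2%). Rorb was at 4.20 in cells of the first round, 2.02 in the second and 1.39 in the third. The summed level of the 8 L4 marker genes showed the same order at 7.87, 3.97 and 2.69. It was 1.51 in L2/3 and 1.67 in non-neuronal cells. By subclass label it was 2.51 (2.11 to 2.96) in astrocytes, 2.08 in microglia and 1.30 in oligodendrocytes. The interval of the third round (2.24 to 3.20) overlapped that of astrocytes. First-round cells also lay in a narrower band, with an interquartile range of depth of 70.8 µm compared with 172.6 µm in the third round, and position was not used for the label.

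To describe what distinguished L4 from the IT neurons above it, all genes were compared between L4 and L2/3 cells. A gene was called when its ratio was at least 1.5 in either direction and had the same direction in each of the 4 regions, among genes with at least 50 expected UMIs in the smaller group. Of 6900 genes tested, 141 (2.04%) were called higher and 103 (1.49%) lower in L4, and the median log2 ratio of all tested genes was 0.01. After thinning to 300 UMIs per cell, 46 were higher and 28 lower. Since the labels were built on expression, these are descriptions of the labelled cells and not tests of a difference.

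The gene set apart most clearly toward L4 was Grik1 (chr16:87692788-88087153, minus strand), the kainate receptor subunit GluK1. It was at 0.90, 0.48, 0.80 and 0.77 in L4 and at 0.08, 0.20, 0.14 and 0.16 in L2/3, a pooled ratio of 5.81 (3.79 to 9.31). Whrn had a ratio of 4.83 (3.07 to 7.96) and Rorb of 4.32 (3.55 to 5.31). The other genes leading in this direction had ratios from 2.98 to 3.90. Pcdh15, a protocadherin best known from the tip links of hair cells, was at 4.41, 5.18, 2.78 and 4.47 in L4 and at 1.83, 1.24, 0.69 and 1.26 in L2/3 (ratio 2.98, 2.59 to 3.43). Galntl6, a putative glycosyltransferase, was at 2.93 against 0.92, and Nell1, a secreted protein with EGF-like repeats, at 1.18 against 0.38. The potassium channel gene Kcnh5 (0.92 against 0.27), the thrombospondin-repeat gene Thsd7a (1.10 against 0.29), the zinc finger gene Zmat4 (1.70 against 0.44) and Chrm2, an inhibitory muscarinic receptor (0.45 against 0.12), completed the leading group. In each of these 10 genes, the lowest region of L4 lay above the highest region of L2/3.

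In the other direction, Lrrtm4 (chr6:79995860-80787124, plus strand) stood apart. This gene encodes a postsynaptic leucine-rich repeat protein that organizes excitatory synapses through heparan sulfate proteoglycans. It was at 2.99, 2.67, 2.36 and 2.43 in L4 and at 15.3, 12.8, 8.64 and 9.75 in L2/3, a ratio of 0.21 (0.19 to 0.23). Other genes were lower in L4 as well. Rgs6, which shortens G protein signaling, was at 0.88 against 3.17, and Dgkb, a diacylglycerol kinase, at 0.75 against 1.83. The neurotrophin-3 receptor gene Ntrk3 was at 1.24 against 3.18 and the sorting receptor gene Sorcs3 at 0.62 against 2.03. Chrm3, an excitatory muscarinic receptor, was at 1.12 against 2.65, opposite in direction to Chrm2. Tafa1 (1.91 against 4.80), Cntnap5a (0.63 against 1.68), Gsg1l, an AMPA receptor auxiliary protein (0.42 against 1.08), and the GABA-A subunit gene Gabrg3 (0.45 against 1.38) were lower as well. Gabrg3 overlaps a gene on the other strand, and reads of the pair may not have been separable. In all 10 genes, the highest region of L4 lay below the lowest region of L2/3.

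**Figure D3:**
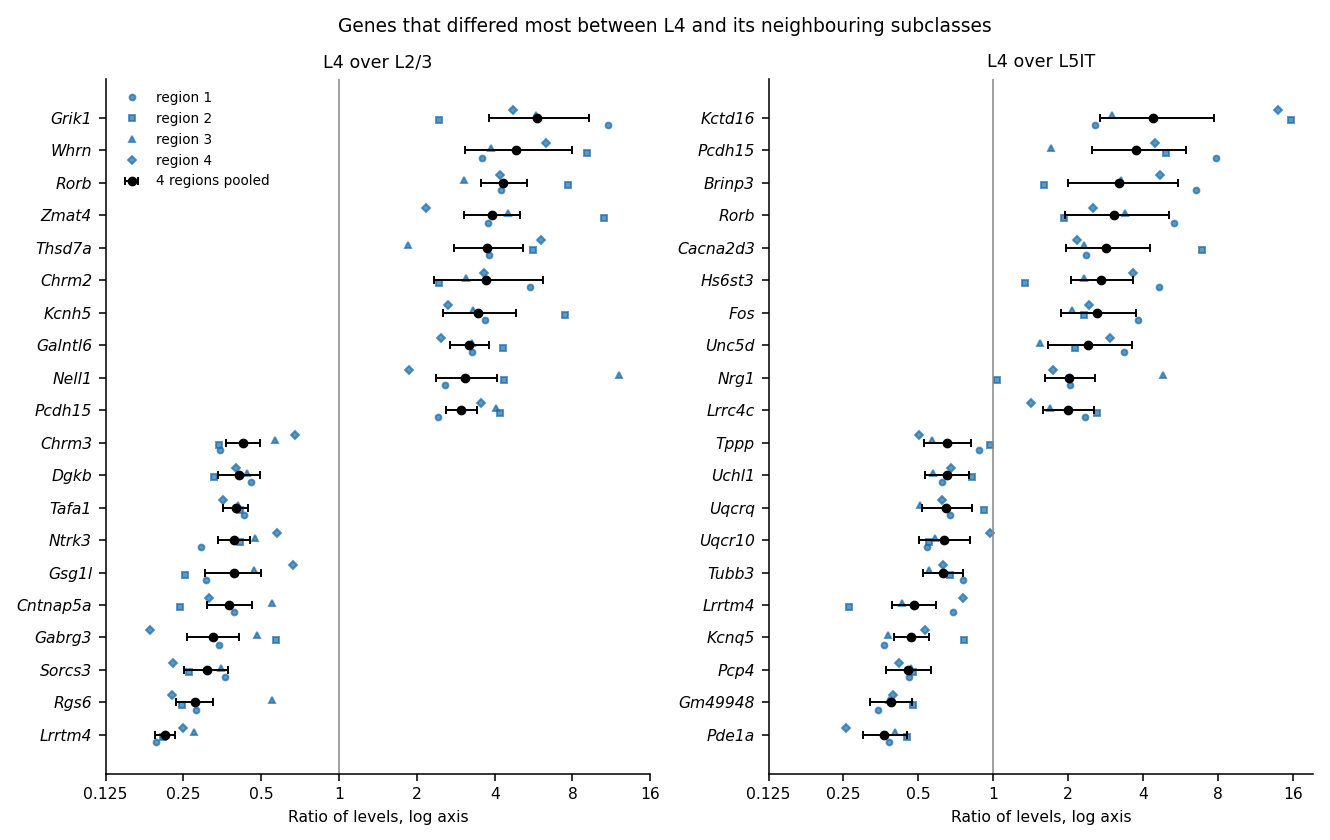
Ratio of the level in L4 to that in L2/3 (left) and in L5IT (right) on a log x axis for the 20 genes named in each comparison (y axis), with black points for the pooled ratio and its 95% interval and blue symbols for the 4 regions. Regional ratios lie on one side of 1 for every gene shown, as the rule for calling a gene required. Pooled ratios against L2/3 run from 5.81 for Grik1 to 0.21 for Lrrtm4.

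Genes were then grouped by function. Over all 6900 tested genes, 2.04% were higher and 1.49% lower in L4, and no group was tested against these shares. Of the 9 AMPA and kainate receptor subunits, all tested, Gria4 (3.12 against 1.88, ratio 1.66) and Grik1 were higher in L4 and Gria3 was lower (2.93 against 5.55, 0.53). The widely expressed subunits, Gria1 (ratio 0.96) and Gria2 (0.88), were not called. None of the 3 tested NMDA receptor subunits was called. Among metabotropic glutamate receptors, 1 of 6 tested was higher (Grm3, 1.65) and 1 lower. Of 10 tested GABA-A receptor subunits, none was higher and 2 were lower (Gabra2 at 0.57 and Gabrg3).

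For the following groups too, the shares over all tested genes were 2.04% higher and 1.49% lower. Of 35 tested potassium channel genes, Kcnh5, Kcnt2 (1.86) and Kcnk2 (1.56) were higher. Kcnip4, a modulator of Kv4 channels, was lower (9.88 against 19.5, ratio 0.51). Of 24 tested sodium and calcium channel genes, the auxiliary subunit gene Cacna2d3 was higher (3.95 against 2.10, 1.88), and Cacna1c (0.61) and Cacnb2 (0.63) were lower. Cadherins and protocadherins gave 2 higher (Pcdh15 and Cdh12, 1.73) and 1 lower (Cdh7, 0.45) of 20. Of 43 tested guidance and synaptic adhesion genes, Cntn5 (2.45), the netrin receptor gene Dcc (1.73) and Lrrc4c (1.63) were higher, and Lrrtm4, Cntnap5a and Lrrtm3 (0.64) lower. Among 10 tested receptors for monoamines, acetylcholine and peptides, Chrm2 and the corticotropin-releasing hormone receptor gene Crhr1 (1.55) were higher and Chrm3 lower. No gene was called among 16 for CaMKII, calmodulin and calcineurin, 11 neurofilament and axon genes, and 5 of the perineuronal net and matrix.

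Layer transcription factors and the marker lists of each layer were examined next, beside shares of 2.04% higher and 1.49% lower over all tested genes. Of 28 tested transcription factors, 4 were higher in L4, namely Rorb, Fezf2 (2.38), Tshz2 (1.89) and Tox (1.60), and none was lower. Fezf2 is the classical determinant of subcerebral projection neurons of L5, and its level was 0.41 in L4. Of the 13 L2/3 markers, 8 were tested, with Calb1 (0.55), Rasgrf2 (0.51) and Enpp2 (0.67) lower and Chrm2 higher in L4. All 4 tested genes of the 8 L4 markers were higher in L4, namely Rorb, Whrn, Kcnh5 and Rspo1, a secreted activator of Wnt signaling (2.51). Markers of deeper layers were called higher in L4 for 2 of 5 tested L5IT genes (Deptor, 1.62, and Tox), 1 of 4 L5PT genes (Fezf2), 1 of 3 L5NP genes (Tshz2) and 1 of 4 L6CT genes (Hs3st4, 1.75 against 0.73), and none was lower. No tested marker of GABAergic neurons, astrocytes, oligodendrocytes or microglia was called. The upper-layer genes Cux2 (0.74) and Lamp5 (0.69) were not called. Summed over the 13 genes, the level was 9.30 in L4, 14.3 in L2/3 and 7.85 in non-neuronal cells. Of 23 tested immediate early genes, which respond to neuronal activity, 1 was lower (Nptx2, 0.59) and none higher. Arc (1.39), Nr4a1 (1.25), Egr1 (1.16) and Fos (1.12) had ratios that did not reach 1.5.

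Against L5IT, the IT neurons below, only 734 genes could be tested because the group held 133 cells. Of these, 25 (3.41%) were called higher and 10 (1.36%) lower in L4. These counts were 0 and 0 after thinning to 300 UMIs per cell, 10 and 0 with first-round labels alone, and 16 and 4 without region 3. Kctd16, an auxiliary subunit of GABA-B receptors, led at 3.87, 4.12, 2.68 and 2.81 in L4 against 1.5, 0.26, 0.89 and 0.20 in L5IT (ratio 4.39, 2.69 to 7.72). Pcdh15 had a ratio of 3.77 (2.50 to 5.97) and Rorb of 3.05 (1.94 to 5.10). Brinp3 was at 2.62 against 0.81, and Cacna2d3 at 3.95 against 1.39. Hs6st3, a heparan sulfate sulfotransferase, was at 6.61 against 2.44, but region 2 of L5IT (5.23) lay above regions 3 (4.83) and 4 (5.15) of L4. The netrin receptor gene Unc5d was at 3.34 against 1.39, Lrrc4c, encoding the netrin-G1 ligand, at 7.34 against 3.69, and the neuregulin gene Nrg1 at 7.57 against 3.74. For Nrg1, region 2 of L5IT (6.79) lay above regions 3 (6.43) and 4 (6.31) of L4. Fos was at 5.02, 4.86, 3.70 and 4.38 in L4 and at 1.31, 2.09, 1.78 and 1.81 in L5IT (ratio 2.62, 1.88 to 3.76), and was the single called gene of the 9 immediate early genes tested.

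Lower in L4 than in L5IT were Pde1a, a calcium- and calmodulin-dependent phosphodiesterase, at 2.28, 2.24, 2.26 and 1.70 against 6.00, 4.96, 5.64 and 6.62 (ratio 0.37, 0.30 to 0.45). The calmodulin-binding peptide gene Pcp4 (chr16:96268806-96326997, plus strand), a marker of deep layers, was at 2.44 against 5.36. Gm49948, listed at 2.40 against 6.18, lies over Pcp4 on the same strand, so the share of each is uncertain. The M-current channel gene Kcnq5 was at 4.15 against 8.86, and Lrrtm4 at 2.65 against 5.51. Lrrtm4 was thus lower in L4 than in the IT neurons on either side, with 2.65 in L4, 12.4 in L2/3 and 5.51 in L5IT. The remaining 5 genes, Tubb3, Uchl1, Tppp and the respiratory chain genes Uqcr10 and Uqcrq, had ratios of 0.63 to 0.65. Kcnip4 had a ratio of 1.51 against L5IT, opposite to its ratio of 0.51 against L2/3.

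L4 cells also carried a type label. The types were defined in the mouse atlas from gene expression. Gene levels by type therefore describe the labelled cells and are no independent check of the types. L4_B was the most frequent with 831 cells (44.2%), followed by L4_A with 435 (23.2%) and L4_C with 103 (5.48%). No type was given for 348 cells (18.5%), 72 carried the type L2/3_B and 61 the type Micro (microglia), and the remaining 9 types held 1 to 6 cells each. The cells of type L2/3_B had a Rorb level of 1.02 and those of type Micro 1.23. Microglial markers summed to 4.43 in the latter, 2.18 in all L4 cells and 10.0 in cells with the subclass label Micro. First-round subclass labels made up 74.9% of L4_A, 34.8% of L4_B and 64.1% of L4_C, and the median was 1279, 1166 and 1584 UMIs. The shares by region were similar, at 21.7% to 25.6% for L4_A, 43.2% to 45.7% for L4_B and 3.87% to 6.79% for L4_C.

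L4_A had the highest level of Rorb, at 4.74 (4.20 to 5.32), against 2.54 (2.24 to 2.87) in L4_B and 2.07 (1.44 to 2.90) in L4_C, and the intervals of the latter pair overlapped. Compared with the other L4 types together, 67 of 2721 tested genes (2.46%) were higher and 39 (1.43%) lower in L4_A, and 17 and 3 after thinning. Nell1 (chr7:49624603-50516670, plus strand) was at 2.78, 3.89, 3.33 and 2.31 in the L4_A cells of regions 1 to 4 and at 0.50, 0.47, 0.65 and 0.34 in the other types (ratio 6.09, 4.50 to 8.34). Hs6st3 was at 13.3 against 4.71 and the adhesion gene Lingo2 at 7.47 against 3.09. Kcnh5 (ratio 2.83) and Tafa1 (2.63) were the other leading genes. Tafa1 therefore had a higher level in L4_A than in the other L4 types, although it was lower in L4 than in L2/3. Of 25 tested potassium channel genes, 4 were higher, all of the Kcnh and Kcnq families (Kcnh5, Kcnh1, Kcnh7 and Kcnq3). Of 3 tested metabotropic glutamate receptors, Grm3 (1.68) and Grm7 (1.51) were higher.

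The gene furthest below in L4_A was Pcdh15 (chr10:72935174-74485569, plus strand), at 1.62, 1.15, 0.76 and 0.82 against 6.76, 7.44, 3.90 and 6.83 in the other types (ratio 0.18, 0.14 to 0.24). With 1.14 in L4_A, the type with the most Rorb was close in Pcdh15 to L2/3 (1.39) and L5IT (1.10). The other named genes lower in L4_A were Scg2, a secretogranin of dense-core vesicles (0.50), Pde1a (0.52), the mitochondrial chaperonin gene Hspe1 (0.43) and Ssb (0.46). Hspe1 and Ssb, and among other genes named here Psmb7, Kcnh3, Sirt2 and Tafa1, each overlap another gene on the opposite strand.

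L4_C was set apart by Pcdh15 in the opposite direction. Its level was 18.0, 24.5, 15.2 and 26.9 in the L4_C cells of regions 1 to 4, against 3.48, 2.61, 1.97 and 2.98 in the other types, a ratio of 7.35 (6.36 to 8.48). In all, 17 of 492 tested genes (3.46%) were higher and 22 (4.47%) lower in L4_C. After thinning these counts were 0 and 0, and 9 were lower without region 2. Fewer genes were higher without region 1 and more without region 3, and fewer were lower in either case. Dpp10 (chr1:123249200-124773776, minus strand), an auxiliary subunit of Kv4 potassium channels, was at 44.0 against 14.1 (3.12). Nrg1 was at 21.6 against 7.55, the nuclear receptor gene Rora at 12.7 against 4.67, and Gria4 at 8.29 against 3.00. In each of these genes, the lowest region of L4_C was above the highest region of the other types. Galntl6, with too few expected UMIs for this comparison, was at 14.2 in L4_C, 1.58 in L4_A and 1.73 in L4_B. Rora and Rorb are closely related nuclear receptors. Rora was higher in L4_C (12.7) than in L4_A (7.16) and L4_B (3.20), whereas Rorb was lower in L4_C than in the other types (ratio 0.62, 0.42 to 0.88).

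A few immediate early genes and genes of the CaMKII, calmodulin and calcineurin list were called lower in L4_C. Over all 492 tested genes, 4.47% were lower and 3.46% higher, and no gene was called after thinning. Egr1 was at 9.76 against 15.8 (0.62) and Nr4a1 at 6.89 against 10.6 (0.65), which were 2 of the 7 immediate early genes tested, with none higher. The kinase gene Camk2a was at 8.17 against 12.8 and the gene of its inhibitor Camk2n1 at 9.94 against 16.1, which were 2 of 9 genes tested. Lingo2 (0.38), Rgs4 (0.38) and Rims3 (0.49) were also lower. Rgs4 and Rims3 were lowest in region 1, at 0.31 each. Summed L5IT markers were at 5.31 (4.25 to 6.54) in L4_C, 3.00 in L4_A, 3.45 in L4_B and 7.95 in L5IT cells. Summed L2/3 markers were at 6.28 in L4_C, 9.37 in L4_A and 9.28 in L4_B. The 7 glutamatergic markers summed to 35.5 in L4_C, 42.9 in L4_A and 46.1 in L4_B. The part of these markers in the differences of L4_C was not tested.

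In L4_B, more genes were lower than higher relative to the other types. Of 3556 genes tested, 75 (2.11%) were higher and 118 (3.32%) lower, and 7 and 34 after thinning. First-round labels were 34.8% of L4_B, against 74.9% of L4_A and 64.1% of L4_C. With first-round labels alone, fewer genes were called in both directions. The part of label round in the differences of L4_B was not tested. Its leading lower genes were high in L4_A or L4_C, namely Nell1 (0.21), Hs6st3 (0.29), Tafa1 (0.31), Rora (3.20 against 8.38, 0.38) and Galntl6 (0.40), and the comparisons of the 3 types share their cells. Nlgn1, a synaptic adhesion gene encoding neuroligin 1, was at 4.89 against 10.5. Homer1, a scaffold of the postsynaptic density that is also induced by activity, was at 5.61 against 8.75. The genes that led in the other direction were Hspe1 (1.37 against 0.56, ratio 2.46), Scg2 (2.17), Ssb (2.11), the proteasome gene Psmb7 (2.07) and Tceal9 (1.87). Of the 5 tested GABAergic markers, the neuropeptide gene Npy was higher (1.01 against 0.49, ratio 2.05). Summed over the 8 GABAergic markers, the level was 11.8 in L4_B (10.0 to 13.6 by region), 9.25 in L4_A (8.04 to 10.1), 9.64 in L4_C (7.58 to 13.9) and 12.3 in non-neuronal cells, and its part in the differences of L4_B was not tested. The leading ratio of 2.46 compares with 6.09 for L4_A and 7.35 for L4_C.

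**Figure D4:**
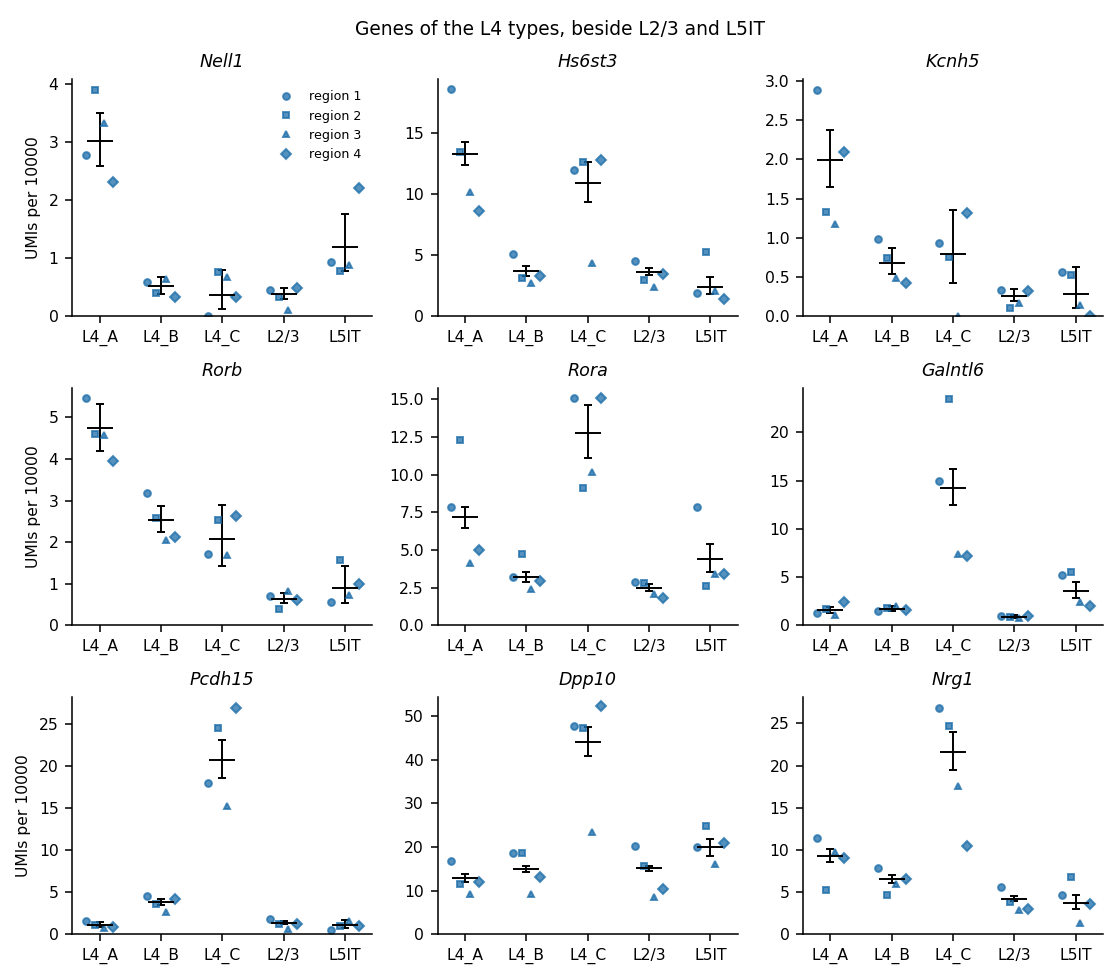
Levels (y axes, UMIs per 10000 UMIs) of 9 genes in L4_A, L4_B, L4_C, L2/3 and L5IT (x axes), with black bars for the pooled level and its 95% Poisson interval and blue symbols for the 4 regions. Nell1, Hs6st3 and Rorb are highest in L4_A, and Pcdh15, Dpp10, Nrg1 and Rora are highest in L4_C.

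Position was then examined, which the subclass labels had not used. Whether the type labels used it is not given in the sources used here. Depth was measured in µm from the top of each region without scaling between regions, whose heights were 774.5, 697.3, 623.7 and 698.6 µm. The authors' regions began at the top of L2/3, so these are not depths from the cortical surface. The median depth of L4 cells was 256.8, 254.0, 200.2 and 238.5 µm in regions 1 to 4, that of L2/3 cells 134.7, 146.5, 94.4 and 114.7 µm, and that of L5IT cells 368.3, 394.8, 365.3 and 407.4 µm. L4 lay between the other subclasses in each region, at a pooled median of 33.7% of the height, compared with 17.5% for L2/3 and 55.0% for L5IT. The L4 share of glutamatergic cells was 15.3% in the uppermost of 10 depth bins, peaked at 73.6% in the fourth (71.0%, 74.3%, 74.5% and 76.1% by region) and was 2.93% in the lowest. Because V1 was identified in part by prominent L4 cells, the band in each region is not independent of the choice of regions.

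The types differed in depth. L4_A and L4_B had nearly equal medians of 232.6 and 233.7 µm, whereas L4_C lay deeper at 297.6 µm. The median of L4_C was 323.0, 317.4, 254.9 and 291.5 µm by region, deeper than those of L4_A (248.9, 252.8, 194.9 and 230.8 µm) and L4_B (250.8, 249.4, 189.2 and 238.5 µm) in all 4 regions. In the bin from 30% to 40% of the height lay 51.7% of L4_A and 38.6% of L4_B cells, and 61.2% of L4_C cells lay in the bin below it. Region 3, the region of least height, had the smallest median depth for each of the 3 types.

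**Figure D5:**
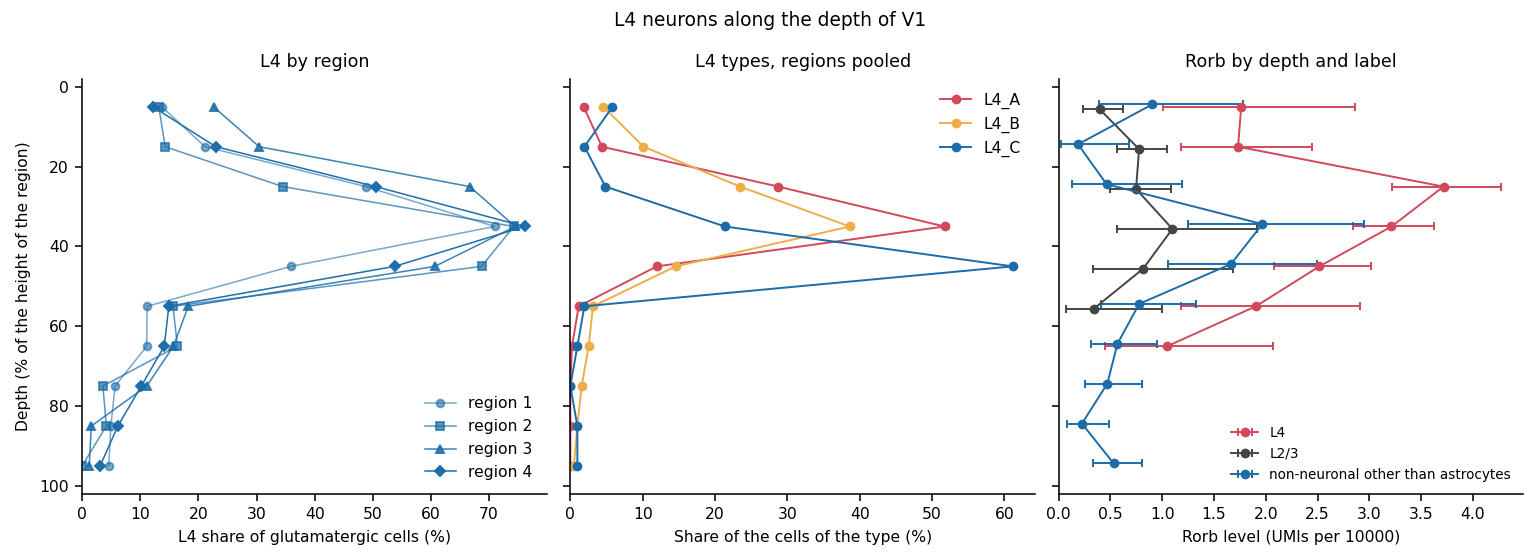
L4 share of glutamatergic cells by depth bin in each region (percent), distribution of the 3 L4 types over the bins (percent of the type), and level of Rorb by bin (UMIs per 10000 UMIs) in L4, L2/3 and non-neuronal cells other than astrocytes (bars, 95% Poisson intervals; bins of at least 50 cells), all on the x axes against relative depth in 10 bins on the y axis (percent of the height). The L4 share peaks at 73.6% between 30% and 40% of the height, and L4_C peaks 1 bin below L4_A and L4_B.

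L4 cells lay next to other L4 cells more often than their share of the labelled cells. Neighbours were counted by subclass label alone, so that the 90 cells of another class count as L4 here. Among the 10 nearest labelled cells of the 1879 L4 neurons, 49.0% were L4 (44.4%, 49.6%, 52.7% and 50.9% by region), whereas L4 made up 25.7% of the labelled cells. L2/3 cells were 18.8% of the neighbours and 18.8% of the labelled cells. L6CT cells, which lie deep, were 5.03% of the neighbours and 16.2% of the labelled cells. Astrocytes, at 5.47% against 5.84%, were about as frequent next to L4 cells as elsewhere. Around L4_A, L4_B and L4_C cells the L4 share was 60.2%, 50.2% and 51.7%, respectively, and it was highest around L4_A in each region.

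Some L4 cells lay far from the band. Above the median depth of L2/3 lay 200 cells (10.6%), with a Rorb level of 1.90 (1.34 to 2.61), and 7.5% of them were labelled in the first round. Below the median depth of L5PT, the subcerebral projection neurons of L5, lay 158 cells (8.41%), with 1.28 (0.84 to 1.86), and 6.33% of them were labelled in the first round. Between these depths lay 1521 cells (80.9%) with a level of 3.02, of which 45.0% were first-round labels. The 30 cells below the median of L6CT held 28640 UMIs and none of Rorb. With 3 UMIs taken as the limit of a count of 0, this allows a level of up to 1.05. The exact 95% interval reaches 1.29. In the 158 cells below the median of L5PT, Pcp4 was at 6.09, compared with 7.05 in the other glutamatergic cells at that depth and 2.44 in all L4 cells. In the same cells and the other glutamatergic cells there, respectively, Rorb was at 1.28 and 0.31, Lrrtm4 at 1.84 and 4.71, and Hs3st4 at 1.75 and 4.01.

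Within L4, gene levels varied with depth. The L4 cells of each region were divided by depth into 3 equal groups, and the 626 lower cells were compared with the 627 upper cells. The lower group included the 158 cells below the median depth of L5PT, and the upper group the 200 above that of L2/3. First-round labels made up 6.33% and 7.5% of these cells, respectively. The 158 cells held 129 of the 335 Pcp4 UMIs of the lower group. The part of such cells in the differences with depth was not tested. Of 3403 genes tested, 92 (2.7%) were higher and 78 (2.29%) lower in the lower group, and 14 and 16 after thinning. Cntn5, a contactin of the axonal membrane, was at 3.87, 3.41, 1.71 and 3.78 in the lower and at 1.08, 0.44, 1.36 and 0.93 in the upper cells (ratio 3.15, 2.43 to 4.14). Galntl6 was at 4.85 against 1.63 and Pcp4 at 3.74 against 1.49. Further higher genes were Pcdh15 (2.16), Dcc (2.04) and the transcriptional regulator genes Lmo3 (2.47) and Etv1 (2.06). Etv1 is a known marker of L5. Sirt2, a deacetylase abundant in oligodendrocytes, was at 1.06 against 0.36, and the summed level of the oligodendrocyte markers was 23.9 in the lower and 17.0 in the upper L4 cells.

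In the opposite direction, Calb1, the gene of the calcium-binding protein calbindin, was at 0.51, 0.61, 0.71 and 1.01 in the lower cells and at 1.86, 1.68, 1.83 and 1.52 in the upper cells (ratio 0.40, 0.29 to 0.54). The upper-layer genes Rasgrf2 (0.50), Lamp5 (0.50) and Cux1 (0.54) were lower in the lower cells. Ddit4l (0.35), Rtn4rl1 (0.45), a Nogo receptor homolog, and the potassium channel gene Kcnh3 (0.42) were lower as well. Of 16 CaMKII, calmodulin and calcineurin genes, Camk2n1 (0.60) and Ppp3ca (0.64) were lower, and Pcp4 was higher. Over all genes tested for depth, 2.29% were lower and 2.7% higher. No immediate early gene was called among 17 tested. Summed L2/3 markers were at 12.0 in the upper, 9.16 in the middle and 7.21 in the lower cells. Rorb was at 3.11, 3.12 and 2.20 in the same order, and Whrn at 0.33, 0.98 and 0.46.

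The depth profile was partly shared by cells of other labels. L4_C made up 12.3% of the lower and 2.07% of the upper cells. Within L4_B alone, 21 genes were called higher and 29 lower of 1335 tested, and Cntn5 had a log2 ratio of 0.88, Galntl6 of 0.65, Pcp4 of 0.89 and Calb1 of -0.85. To compare with surrounding cells, depth windows were set per region to the interquartile range of depth of the lower and of the upper L4 cells, which are narrower groups than those above. In the 232 non-neuronal cells of the lower and the 155 of the upper windows, Pcp4 was at 4.80 against 1.20. In the same cells, Cntn5 was at 0.62 against 0.34 (ratio 1.79, 0.69 to 5.48) and Galntl6 at 1.10 against 0.80 (1.37). In the 97 and 444 L2/3 cells of these windows, Cntn5 was at 2.27 against 0.60 (ratio 3.76, 2.24 to 6.28), Pcp4 at 4.76 against 1.31 and Galntl6 at 0.60 against 0.64 (0.95). The 312 and 311 L4 cells of these windows had ratios of 5.09 for Cntn5, 4.94 for Galntl6 and 2.21 for Pcp4. Calb1 had ratios of 0.48 in L4, 0.52 in non-neuronal and 0.40 in L2/3 cells of these windows. Sirt2 had ratios of 2.77 (1.47 to 5.59) in L4, 1.08 (0.50 to 2.48) in non-neuronal and 0.75 (0.29 to 1.69) in L2/3 cells. Rorb in non-neuronal cells other than astrocytes was also highest at the depth of L4, at 1.97 in the fourth and 1.66 in the fifth bin, against 0.90, 0.19 and 0.46 in the bins above and at most 0.78 in those below. The part of RNA from surrounding cells in these gradients was not tested.

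Because L4 and L2/3 differ in depth, they were finally compared within the same depth bins, with L2/3 cells weighted to the L4 cells of each region and bin. This retained 1789 L4 and 1346 L2/3 cells, and the limit of 50 expected UMIs used totals without weights. The bins from 20% to 30%, 30% to 40% and 40% to 50% of the height held 427, 679 and 308 L4 cells. They held 271, 104 and 69 L2/3 cells, with 6, 4 and 0 UMIs of Grik1 and 6, 6 and 0 of Whrn. Weighted L2/3 levels thus rest largely on few cells. The part of this in the numbers and ranking of called genes was not tested. Of 6768 genes tested, 308 (4.55%) were higher and 111 (1.64%) lower in L4. With 20 depth bins 204 were higher, and without region 3 there were 186 lower. These ratios are weighted and carry no interval. Pcdh15 led with 4.12 against 0.97 (ratio 4.25), followed by Zmat4 (4.19), Chrm2 (4.10), Thsd7a (3.93) and Grik1 (3.80). Rorb was at 2.90 against 0.92 (3.17) and Whrn had a ratio of 2.02. Lrrtm4 was again the leading lower gene, at 2.69 against 9.37 (0.29), and Tafa1 (0.33), the glypican gene Gpc6 (0.33), Ccdc115 (0.35) and the noncoding RNA Lncppara (0.37) followed. Ccdc115, like Tafa1, overlaps another gene on the opposite strand.

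Of the 135 genes that were higher in L4 without regard to depth and could be tested here, 67 (49.6%) were called again and 133 lay on the same side of 1. Of the 100 lower genes, 29 (29%) were called again and 98 lay on the same side. Both comparisons used the same cells. The median log2 ratio moved from 0.80 to 0.74 for the higher and from -0.75 to -0.55 for the lower genes. Over all genes tested at equal depth, 4.55% were higher and 1.64% lower. Among the function groups, cadherins and protocadherins gave 4 higher of 20 (Pcdh15, Cdh12, Pcdh9 and Cdh2) and none lower. AMPA and kainate subunits gave 3 higher (Grik1, Gria4 and Grik4) and 1 lower (Gria3) of 9. None of the 8 tested L2/3 markers was lower at equal depth, with ratios of 0.90 for Calb1, 0.82 for Rasgrf2 and 0.86 for Enpp2, and Chrm2 was the single higher one. Fezf2, Tshz2 and Tox were not called at equal depth, which does not say how far their ratios moved. Rorb was the single called transcription factor of 27 tested. Of the deep-layer markers, 1 of 4 tested L6CT genes was still called higher, and no L5IT, L5PT or L5NP gene. The median log2 ratio was 0.09 for L6CT, -0.24 for L5IT, 0.21 for L5PT and 0.20 for L5NP markers.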

How the data were processed

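The authors aligned the Stereo-seq reads to GRCm39 with the SAW pipeline, segmented cells and deposited raw UMI counts per gene and cell with a table of positions and labels; their filter required at least 50 genes and 100 UMIs. Deposited symbols differed from GENCODE M39 for 21792 of 61317 features, so genes were named through Ensembl identifiers (61249 matched). Types were defined in the mouse atlas, and how they were transferred to these cells is not given in the sources used here. Members and lists were chosen with earlier results of these data known.

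Counts were summed over the cells of a group and divided by their total, without another normalization. Ratios other than those at equal depth carry exact conditional 95% intervals and shares Clopper-Pearson intervals. UMIs of neighbouring outlines are not separable, and no doublets were removed here. Regions of 1 animal are no biological replicates, and which regions share a coronal section is not given in the sources used here. With 1 animal, no test was possible for a difference between animals. Depth ran from the top of the smallest rectangle around a region, and 2 spatial units make 1 µm.

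Named are the given markers, per comparison the 10 called genes per direction (5 for types and depth) ranked by the interval bound nearest 1 (at equal depth, by the weighted ratio, which has no interval), and up to 5 called and the best known members per list. Alternatives were thinning to 300 UMIs, first-round labels, a filter of 200 genes and 300 UMIs, equal region weights, ratios of 2, 20 or 200 expected UMIs, 20 depth bins, 5 or 20 neighbours, relative depth, and each region left out. The restriction to L4 types, the restriction to L4_B and the depth windows in non-neuronal cells were added after values were seen. Some genes that met the rule for named genes are not reported here. Scripts were tested on simulated data and ran under Python 3.11.15 with scipy 1.17.1 for intervals, pandas 2.3.3 and numpy 2.4.6 for sums, and matplotlib 3.10.9 for plots.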

Additional observations from a re-analysis of the deposited data

How the results depend on the processing

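No paired analysis was possible because the mouse arm is 1 animal and 1 library. Numbers of called genes (higher, lower) depended on the counts available and on the thresholds. After thinning to 300 UMIs per cell they were 46 and 28 against L2/3, 0 and 0 against L5IT, 17 and 3 for L4_A, 7 and 34 for L4_B, 0 and 0 for L4_C, and 14 and 16 for lower against upper cells. With first-round labels alone, 10 and 0 were called against L5IT, 20 and 34 for L4_B, 17 and 16 for depth, 42 higher for L4_A and 10 lower for L4_C. A ratio of 2 left 30 and 26 against L2/3, 9 and 5 against L5IT, 9 and 4, 8 and 21, and 6 and 3 for L4_A, L4_B and L4_C, and 21 and 7 for depth. In the same order, 20 expected UMIs gave 324 and 253, 107 and 51, 170 and 202, 224 and 252, 52 and 127, and 263 and 235, and 200 expected UMIs gave 29 and 24, 2 and 0, 19 and 1, 0 and 35, 3 and 3, and 5 and 6. The restriction of the depth comparison to L4_B gave 21 and 29, and 20 depth bins gave 204 higher at equal depth. Leaving out 1 region gave ranges of 125 to 166 and 101 to 136 against L2/3, 16 to 22 and 4 to 8 against L5IT, 51 to 69 and 43 to 48 for L4_A, 53 to 75 and 85 to 125 for L4_B, 11 to 26 and 9 to 16 for L4_C, 78 to 87 and 68 to 85 for depth, and 311 to 420 and 149 to 186 at equal depth. Against L5IT, 16 and 4 genes were called without region 3, 6 lower without region 1 and 5 lower without region 4. For L4_C, 11 higher and 13 lower were called without region 1, 9 lower without region 2, and 26 higher and 14 lower without region 3, and at equal depth 186 lower were called without region 3. In L4 the level of Rorb was 4.20 and that of Whrn 0.79 with first-round labels, and Scnn1a was 0.14 after thinning. The median depth of L4 (229.3 to 249.5 µm without 1 region) and the L4 share of neighbours (47.8% to 51.2%) moved little. Under these settings, none of the ratios of the named genes that were recomputed changed direction, while at equal depth 133 of 135 higher and 98 of 100 lower genes lay on the same side of 1. Fewer genes were testable after thinning and against L5IT, and other causes were not tested.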
